A study of Mus musculus with 4 samples.

Results

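The distal lung spots are 100 of the 3588 kept spots of a mouse embryo section of embryonic stage E16.5, and 100 of 7435 kept spots in the series. They were chosen by a score, the mean over Sftpc, Sftpb and Nkx2-1 of log(1 + UMIs per 10000), with spots over tissue that held at least 500 UMIs (unique molecular identifiers, counts of captured RNA molecules). Sftpc and Sftpb encode surfactant proteins C and B, and Nkx2-1 encodes a transcription factor of the lung, thyroid and ventral forebrain. The series holds 4 Visium sections of untreated wild-type mice, cut 8 µm thick from frozen tissue: 1 at E16.5, 2 of newborn esophagus (P0) and 1 at E13.5. Both embryo sections carry esophagus in their titles, but their tissue is given as mouse embryo and they hold many organs. The animals behind the sections are not named, so the P0 sections may differ by technical spread alone.

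The distal lung is the part of the organ where branching tips give way to saccules and later to alveoli. Its epithelium produces flat type 1 cells, across which gas is exchanged, and cuboidal type 2 cells, which store surfactant lipid and protein in lamellar bodies and secrete it. Late in gestation both cell types mature next to a mesenchyme that lays down elastic fibres and a growing bed of capillaries, while airways upstream carry club and ciliated cells.

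A Visium spot is a small region that can hold several cells of different types, so every level below belongs to a mixture. UMIs were added up over a set of spots, and a level is the gene's share of that sum per 1000000 (CPM), with exact Poisson or conditional binomial 95% intervals that cover counting error alone. In such sums, fewer cells of a type and less RNA per cell cannot be told apart. With 1 section per embryonic stage there is no replicate, and the spots were chosen from the same counts, so no test was made and every contrast is a description.

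The distal lung spots were shallower than the others, with a median of 15036 UMIs against 27270.5 UMIs in the 3488 other spots. Mitochondrial genes held 1.78% of their UMIs, against 4.38% in the other spots, and ribosomal protein genes 21.3% against 16.3%. Blood genes were close, at 5.15% and 5.06%. The total of the E16.5 section was 105835664 UMIs, and the other sections held 7357333 to 98645152 UMIs. Barcodes mark grid positions, and 2710 barcodes of the E16.5 section also occur in another section.

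As a description of the choice, Sftpc stood at 13904 CPM in distal lung spots and 113 CPM elsewhere, Sftpb at 824 and 6.58 CPM, and Nkx2-1 at 159 and 3.59 CPM. The lowest chosen score was 1.624 and the highest score left out was 1.621, so the limit cuts through a continuum. The 20 chosen spots nearest the limit held 82.8 CPM of Slc34a2 and 207 CPM of Ager, and the 20 nearest spots outside it held 86.6 and 280 CPM. The 3 scoring genes are left out of everything that follows.

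Grid position was not used by the choice. Of the 100 spots, 92 formed 1 connected patch, between rows 6 and 33 and columns 118 and 127, the last column of the grid. The patch ran into the right edge of the capture area, with 28 members in the last 2 columns, so the section shows part of a lung. The other 8 spots lay apart in 5 small groups to its left. These 8 were shallow, with 3921 to 6859 UMIs, and held 9808 CPM of the cartilage collagen gene Col2a1, against 494 CPM in the patch. Their Slc34a2 level was 165 CPM, against 501 CPM in the patch, but it rests on few UMIs, since these spots held 42414 UMIs in all.

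**Figure D1:**
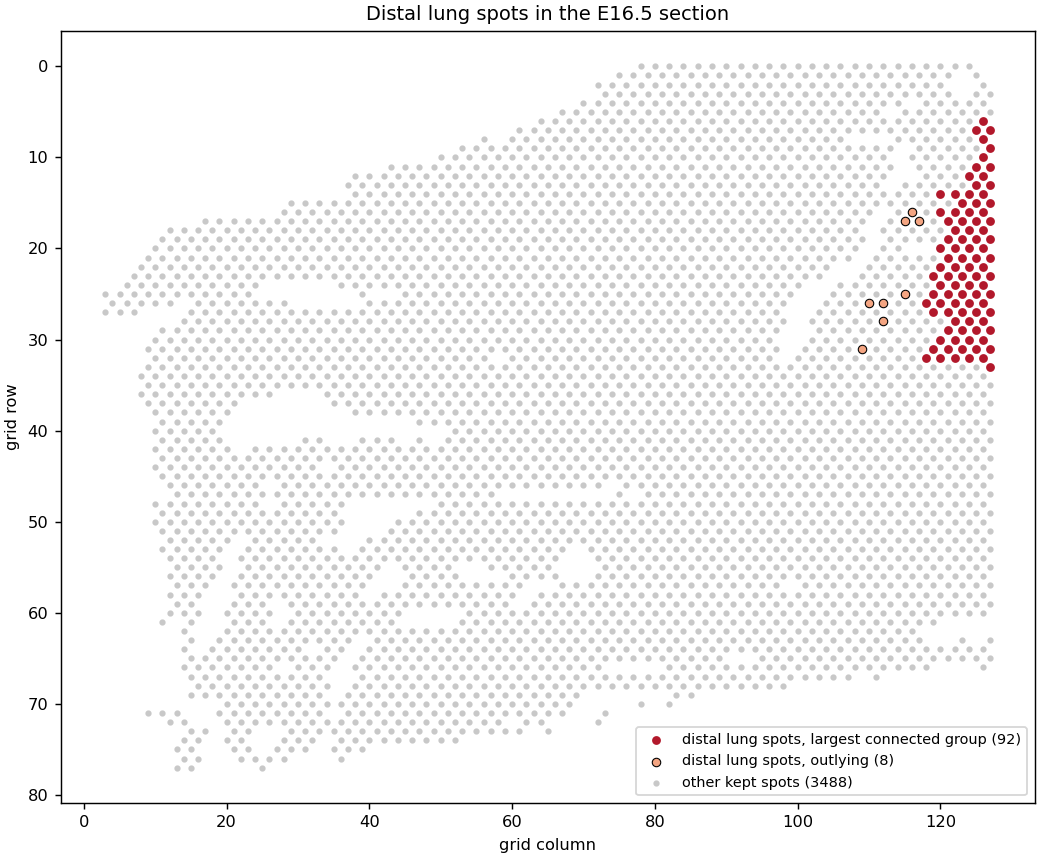
Kept spots of the E16.5 section by grid column and grid row. Red points are the 92 connected distal lung spots, orange points the 8 outlying ones and grey points the 3488 others; the patch lies against the right edge of the grid.

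The label was compared with genes outside the score. All 10 lung genes listed for this, Sftpa1, Sftpd, Lamp3, Abca3, Napsa, Cldn18, Ager, Hopx, Tbx4 and Tbx5, were at least 5.19-fold higher in distal lung spots than in the other spots. They were picked with earlier results of these data known, and several are surfactant genes like Sftpc and Sftpb. The outcome was therefore largely set by the choice of spots. The thyroid genes Pax8 and Tshr had 0 UMIs in distal lung spots, against 3.79 and 1.41 CPM elsewhere, and thyroglobulin (Tg) stood at 16.2 CPM against 88.7 CPM elsewhere. The median log2 ratio of the thyroid list was −2.91, or −1.13 with genes at 0 UMIs set to 3 UMIs, but 0.13 with the 200 highest spots and 4.83 when Sftpc was left out of the score. Of 3 forebrain genes tested, Gad1 and Lhx8 were lower and Lhx6 was higher, with 12 UMIs in all the distal lung spots. Keratins of the esophagus were also low, with Krt4 at 13.9 CPM against 117 CPM, and Krt13 at 27.7 CPM against 176 CPM.

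Over the 14346 genes with at least 200 UMIs, 1152 (8.03%) were at least 2-fold higher in distal lung spots and 2508 (17.5%) at least 2-fold lower, by log2 ratio with a pseudocount of 0.5 CPM. The counting interval lay on the same side of equality for 1149 and 2186 of them. The median log2 ratio over all tested genes was 0.02. The shares of 8.03% and 17.5% are the base for every list count below that compares distal lung spots with the other spots. At least 8-fold differences were fewer, with 91 genes higher and 275 lower, and 18 genes were at least 32-fold higher.

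The 25 highest ratios included many genes of type 2 cells, beside type 1, club cell and mesenchymal genes. Slc34a2 (ENSMUSG00000029188, GRCm38.p6 chr5:53049353-53071664), the sodium phosphate cotransporter of type 2 cells, had the highest log2 ratio with the pseudocount, 7.04, at 493 CPM (460 to 527) against 3.26 CPM, a 151-fold difference (133 to 172) without it. By fold without the pseudocount, Retnla was higher, at 158-fold (131 to 192). Against spots 3 to 8 steps away alone, the log2 ratio of Slc34a2 was 5.25. Per spot it ranged from 0 to 14.8 UMIs per 10000 with a median of 4.86, and 89 of 100 distal lung spots held at least 1 UMI. Elsewhere 7.25% of spots did, and after thinning every spot to 10000 UMIs the shares were 89.7% of 78 distal lung spots and 3.30% of 3060 others. The share stayed high in distal lung spots at this common depth; 22 of them and 428 others were shallower and left out.

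Surfactant protein A, Sftpa1 (chr14:41131788-41136373), was 110-fold higher (96.1 to 125), at 365 CPM against 3.32 CPM. Lamp3, a membrane protein of lamellar bodies (chr16:19653381-19706365), stood at 124 CPM against 1.04 CPM. Sftpd, a collectin of the surfactant (chr14), stood at 84.9 CPM against 1.97 CPM, and Napsa, a protease that processes surfactant protein B, at 142 CPM against 3.996 CPM. The per-spot medians of these 4 genes were 3.62 UMIs per 10000 for Sftpa1, 0.917 for Lamp3, 0.618 for Sftpd and 1.27 for Napsa, so most distal lung spots held each of them in small numbers. Secreted products of the lung epithelium were also among the first: the chemokine gene Cxcl15 at 538 CPM against 3.87 CPM, Sfta2 at 496 CPM against 4.71 CPM, and Retnla at 226 CPM against 1.43 CPM.

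Lyz1, a lysozyme gene expressed in type 2 cells, was 137-fold higher (106 to 178). Its near-identical neighbour Lyz2, which macrophages also express, was 3.39-fold higher (3.02 to 3.81), and reads can be split between these copies. Abca3, the lipid transporter of lamellar bodies, and Lpcat1, which remodels surfactant phosphatidylcholine, stood at 266 CPM against 44.8 CPM and at 347 CPM against 45.9 CPM. These 2 genes were widespread elsewhere, with UMIs in 57.3% and 61.8% of the other spots. Of 17 type 2 and surfactant genes tested, 16 were at least 2-fold higher and none lower, with a median log2 ratio of 3.66. The exception was Cebpa, a transcription factor of type 2 and many other cells, at 49.7 CPM against 48.1 CPM.

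**Figure D2:**
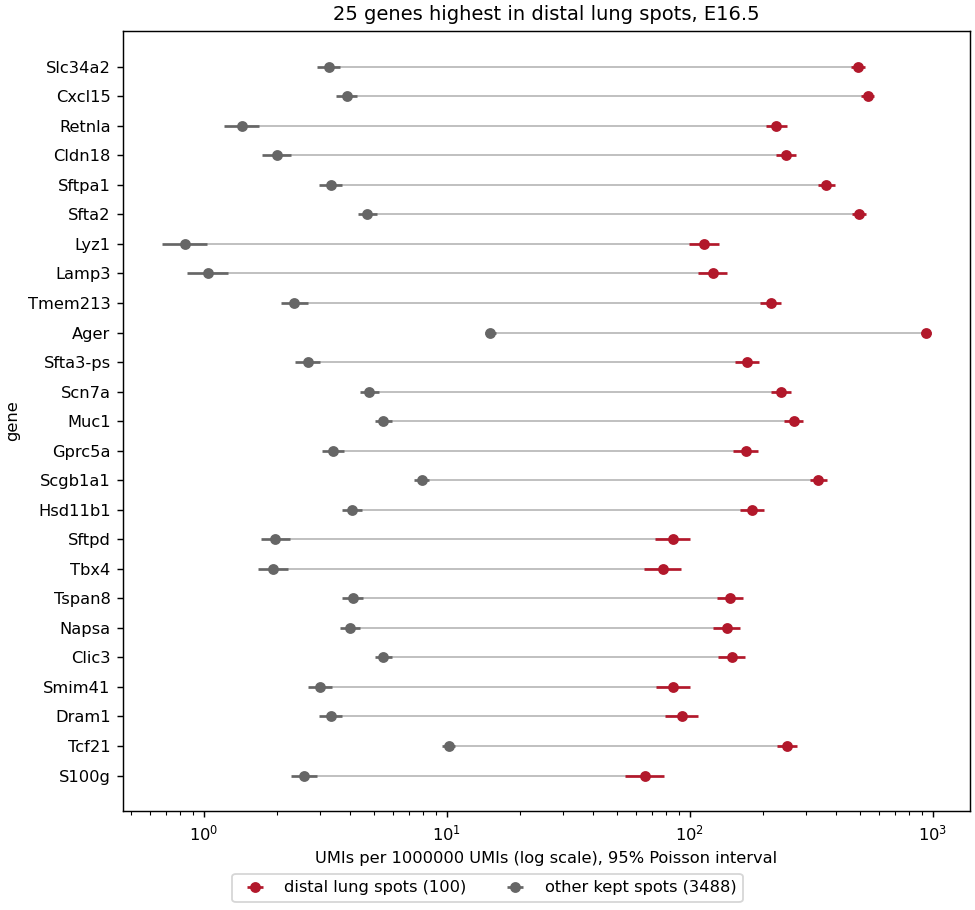
Levels of the 25 genes with the highest ratios, in distal lung spots (red) and the 3488 other spots (grey), as UMIs per 1000000 UMIs on a log axis with 95% Poisson intervals. The levels in distal lung spots lie between 65.3 and 936 CPM, and no interval reaches that of the other spots.

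Promoter sequence was read for the same genes, since they were high in the same spots. Of the 25 genes, 20 matched a RefSeq promoter (GRCm38.p6, 250 bases before to 50 bases after the start). The letters CTCAAG, the core to which NKX2-1 is known to bind, occurred on either strand in 8 of the 20, and in 16.2% of 27025 promoters. The letters TGTTTAC, a forkhead core, occurred in 4 of the 20, and in 3.55% of all promoters. The 2 motifs share no overlapping position here. A match is a description of letters and not a site. The promoters of Slc34a2, which has the highest log2 ratio, and of 3 surfactant or lamellar body genes are shown 5′ to 3′ in the direction of the gene, with either motif in capitals. They span chr5:53049103-53049402 (plus strand) for Slc34a2, chr14:41131538-41131837 (plus) for Sftpa1, chr17:35649458-35649757 (plus) for Sfta2 and chr16:19706316-19706615 (minus) for Lamp3.
Slc34a2: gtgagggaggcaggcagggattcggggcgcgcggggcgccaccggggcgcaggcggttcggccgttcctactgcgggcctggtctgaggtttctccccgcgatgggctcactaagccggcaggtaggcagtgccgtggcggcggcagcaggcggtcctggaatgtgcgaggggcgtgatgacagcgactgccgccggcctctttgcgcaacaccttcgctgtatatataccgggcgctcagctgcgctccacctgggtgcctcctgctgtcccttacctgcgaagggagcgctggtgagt
Sftpa1: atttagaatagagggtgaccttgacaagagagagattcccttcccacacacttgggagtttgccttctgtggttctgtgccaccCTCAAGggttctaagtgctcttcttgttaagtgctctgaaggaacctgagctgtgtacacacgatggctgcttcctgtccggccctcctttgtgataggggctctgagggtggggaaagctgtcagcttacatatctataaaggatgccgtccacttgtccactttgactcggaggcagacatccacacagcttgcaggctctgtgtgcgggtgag
Sfta2: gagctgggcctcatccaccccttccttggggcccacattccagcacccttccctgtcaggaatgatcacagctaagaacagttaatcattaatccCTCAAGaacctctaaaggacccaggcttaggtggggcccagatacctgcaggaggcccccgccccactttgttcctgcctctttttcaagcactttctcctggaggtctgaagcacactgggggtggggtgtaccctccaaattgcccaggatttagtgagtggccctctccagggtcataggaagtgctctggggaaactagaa
Lamp3: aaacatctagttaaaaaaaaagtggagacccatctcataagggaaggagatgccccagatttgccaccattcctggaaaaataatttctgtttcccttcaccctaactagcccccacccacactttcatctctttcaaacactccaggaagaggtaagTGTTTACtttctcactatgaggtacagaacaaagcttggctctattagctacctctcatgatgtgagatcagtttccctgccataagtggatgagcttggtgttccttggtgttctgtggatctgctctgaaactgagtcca
Sftpa1 and Sfta2 hold CTCAAG, and Lamp3 holds TGTTTAC. Slc34a2 holds neither in this window.

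Most type 1 cell genes were higher too. Ager, the receptor for advanced glycation end products and a marker of type 1 cells (chr17:34597460-34600937), stood at 936 CPM (891 to 983) against 15.1 CPM. It was found in 98 of 100 distal lung spots, at a median of 9.05 UMIs per 10000 and a maximum of 32.6, and in 24.97% of the others. Hopx, a homeodomain protein of type 1 cells and of other epithelia, stood at 442 CPM against 85.1 CPM.

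Cldn18, a tight junction claudin of the alveolus, was 125-fold higher (105 to 148). Gprc5a, a receptor of lung epithelium, was 49.9-fold higher (42.6 to 58.5), and the water channel gene Aqp5 12.1-fold (9.90 to 14.7). Of 15 type 1 genes tested, 12 were at least 2-fold higher and none lower, with a median log2 ratio of 3.27. Spock2 and Igfbp2 were among the 3 that stayed within 2-fold, at 28.9 CPM against 42.8 CPM and 112 CPM against 171 CPM.

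Genes of the branching tip gave a mixed picture. Shh, the hedgehog ligand of the lung epithelium, stood at 37.0 CPM against 2.76 CPM, a 13.4-fold difference (10.1 to 17.6). Etv5, a target of FGF signalling, was 6.28-fold higher (5.51 to 7.13), and Fgfr2, the epithelial receptor for Fgf10, 5.85-fold (5.13 to 6.66). Sox9, a transcription factor of the tips and of cartilage, was level at 28.3 CPM against 26.8 CPM. Etv4, a relative of Etv5, had 6 UMIs, or 3.47 CPM against 10.9 CPM, and Lin28b, a regulator of developmental timing, had 0. In all, 6 of 12 tip genes were at least 2-fold higher and 2 lower, with a median log2 ratio of 0.79. The count of lower tip genes is near the 17.5% over all tested genes.

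Lung epithelial transcription factors were high as a group, with 12 of 16 at least 2-fold higher, 1 lower and a median log2 ratio of 1.64. Foxa2, a forkhead factor of the foregut, was 12.2-fold higher (8.71 to 16.9), Elf5 14.98-fold (11.3 to 19.6) and the Iroquois factor Irx1 9.35-fold (7.38 to 11.7). Ehf, a factor of stratified and airway epithelium, had 2 UMIs, a ratio of 0.150 (0.0181 to 0.542). General epithelial genes followed, with 15 of 17 at least 2-fold higher, among them E-cadherin (Cdh1) at 117 CPM against 14.9 CPM and the tight junction gene Cldn3 at 151 CPM against 17.5 CPM. Cldn6, an embryonic claudin under the limit of 200 UMIs and so outside these counts, was 22.2-fold higher on 21 UMIs (12.8 to 37.1).

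Ion and water transport genes, which serve the secretion and later the clearance of lung liquid, were at least 2-fold higher in 9 of 13 cases, with a median log2 ratio of 1.54. The 3 subunits of the epithelial sodium channel stood at 50.3 CPM for Scnn1a, 24.8 CPM for Scnn1b and 26.0 CPM for Scnn1g, against 2.72, 1.51 and 0.528 CPM elsewhere. Slc26a9, an anion transporter, was 61.8-fold higher (38.0 to 101), and Cftr, the chloride channel mutated in cystic fibrosis, 19.0-fold (12.04 to 29.1). Both rest on few UMIs, 37 and 29, and with Scnn1g they fall under the limit of 200 UMIs and outside the count of 9. The sodium pump subunit Atp1b1 was level, at 341 CPM against 311 CPM.

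Genes of lipid synthesis differed less than those of the secreted surfactant. Of 17 tested, 6 were at least 2-fold higher and 2 lower, with a median log2 ratio of 0.78. The highest of the 6, at a log2 ratio of 6.58, was Sfta2, named above among the secreted products. Fatty acid synthase (Fasn) was 2.06-fold higher (1.90 to 2.23) and Scd1, a desaturase, 2.53-fold (2.22 to 2.86). Pnpla2, a triglyceride lipase, was low at 56.0 CPM against 277 CPM. In the glucocorticoid list, 2 of 8 genes passed 2-fold: Hsd11b1, which regenerates active glucocorticoid, at 180 CPM against 4.06 CPM, and Per1, a clock gene that glucocorticoids induce, at 101 CPM against 42.9 CPM. The receptor gene Nr3c1 was 1.96-fold higher (1.61 to 2.36).

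Genes of the lung mesenchyme were higher in these spots as well. Tbx4, a T-box factor of lung mesenchyme and hindlimb (chr11), stood at 77.4 CPM (64.9 to 91.7) against 1.93 CPM, a 40.1-fold difference (31.98 to 50.1). Its per-spot median was 0.670 UMIs per 10000 and its maximum 3.75, and 66 of 100 distal lung spots held it, against 5.25% of the others. Tcf21, a factor of lipofibroblasts and other mesenchyme, stood at 250 CPM against 10.2 CPM, with a median of 2.18 UMIs per 10000.

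Foxf1, a hedgehog target of lung mesenchyme and endothelium, was 19.1-fold higher (15.5 to 23.4), and Wnt2, a mesenchymal ligand needed for lung specification, 16.9-fold (13.47 to 21.1). Fgf10, the ligand that draws out the tips, was 5.30-fold higher (3.77 to 7.27). Mfap4, an elastic fibre protein, was among the most abundant, at 2012 CPM against 241 CPM. Of 22 lung mesenchyme genes tested, 17 were at least 2-fold higher and 2 lower, with a median log2 ratio of 2.16. The 2 lower genes, Nkx6-1 and Lix1, had 3 UMIs each, and Barx1, a factor of stomach and esophageal mesenchyme, had 4.

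Signalling genes showed the ligands and targets of several pathways together. In the Hedgehog list, the receptor and target Ptch1 was 3.09-fold higher (2.63 to 3.60), the transcription factor and target Gli1 3.72-fold (2.89 to 4.73), and Hhip, which binds and restrains the ligand, 8.04-fold (6.66 to 9.64). Over the list, 5 of 11 genes were at least 2-fold higher and none lower. In the FGF list 8 of 14 were higher and 1 lower, the receptors Fgfr3 and Fgfr4 among the higher at 144 CPM against 40.5 CPM and 36.4 CPM against 7.37 CPM.

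Of 26 Wnt genes, 6 were at least 2-fold higher and 4 lower. Over all tested genes 8.03% were higher and 17.5% lower, the base for each list in this paragraph. The count of lower Wnt genes is near that share. Beside Wnt2, the feedback gene Nkd1 and the ligand Rspo1 were among the higher, at 45.6 and 17.3 CPM against 12.7 and 2.98 CPM. Lgr5, the R-spondin receptor in the title of the series, had 3 UMIs over the 100 distal lung spots, or 1.73 CPM against 3.77 CPM, a ratio of 0.460 (0.0945 to 1.36). On these 3 UMIs the interval spans equality, so no difference in Lgr5 was resolved. Lgr4, a related receptor, stood at 10.4 CPM against 25.2 CPM. BMP and TGF-beta genes passed 2-fold upward in 8 of 21 cases, with Bmp4, a tip ligand, at 27.2 CPM against 10.1 CPM, and downward in 1. Notch genes did so in 3 of 13 and 1 of 13, and retinoic acid genes in 1 of 14 and 4 of 14.

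Blood vessel genes were moderately higher. Of 24 endothelial genes 14 were at least 2-fold higher and none lower, with a median log2 ratio of 1.06. Egfl7, secreted by endothelium, stood at 411 CPM against 110 CPM, the junctional cadherin Cdh5 at 148 CPM against 58.4 CPM, and Sox17, a factor of arterial endothelium, at 34.7 CPM against 7.80 CPM. Car4, a marker of mature lung capillaries, had 8 UMIs and was level, at 4.62 CPM against 5.50 CPM. Among angiogenic signals, Vegfa stood at 205 CPM against 65.6 CPM and Vegfd at 90.7 CPM against 9.55 CPM. Higd1b, a pericyte gene, was 12.04-fold higher (10.1 to 14.3) at 94.7 CPM, while the pericyte gene Rgs5 stood at 35.8 CPM against 60.3 CPM.

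The matrix differed by type. Elastin (Eln) stood at 1924 CPM against 773 CPM, and Lox, which crosslinks elastin and collagen, at 404 CPM against 140 CPM. Of the basement membrane chains, 4 with large ratios were Lama3 15.4-fold (12.7 to 18.6), Lama5 9.26-fold (8.38 to 10.2), Col4a3 36.5-fold (23.1 to 56.9) and Col4a4 22.4-fold (15.7 to 31.6). Both Col4a3 and Col4a4 are under the limit of 200 UMIs and outside the counts here. They form the collagen IV network that mature alveolar and glomerular basement membranes share. In contrast, fibrillar collagens were close to the rest over the distal lung spots as a whole. Col1a1 stood at 2368 CPM against 2918 CPM, and Col3a1 at 2339 CPM against 2724 CPM. These levels pool unlike parts of the patch, described further below. Col1a1 stood at 1189 CPM in interior spots, 1184 CPM along the grid edge or tissue gaps and 3493 CPM at the rim. Col3a1 stood at 1314, 1676 and 3213 CPM in the same parts. Of 24 elastic fibre and basement membrane genes 10 were at least 2-fold higher and 14 within 2-fold. Of 12 fibrillar matrix genes 1 was at least 2-fold higher, fibronectin (Fn1), near the 8.03% over all tested genes.

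Proliferation genes were all within 2-fold, with a median log2 ratio of 0.51 over 15 genes and Mki67 at 154 CPM against 84.5 CPM. Over the distal lung spots as a whole, immune genes were near the level of the rest as well, with 1 of 12 at least 2-fold higher. That gene was S100a8, a product of neutrophils, at 24.3 CPM against 8.97 CPM. The summed immune list was uneven among the parts described below, against 473 CPM in the other spots. It stood at 231 CPM in interior spots, 369 CPM along the grid edge or tissue gaps and 817 CPM at the rim.

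Hox genes mark position along the body axis, and many were low. All 5 HoxC and all 4 HoxD genes tested were at least 2-fold lower, as were 4 of 8 HoxB and 2 of 6 HoxA genes. Hoxa5, which has a known role in the lung, was level at 61.8 CPM against 55.1 CPM, and Hoxb2 and Hoxb5 stood at 39.9 CPM against 21.0 CPM and 28.9 CPM against 23.6 CPM. Hoxb8 and Hoxc8 were far lower, at 7.51 CPM against 49.0 CPM and 2.89 CPM against 28.5 CPM.

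The 10 lowest ratios belonged to genes with few or no UMIs in the distal lung spots. Slc6a4, the serotonin transporter, had 0 UMIs in distal lung spots and was at least 12.4-fold lower than in the other spots. The airway mucin gene Muc5b was at least 10.7-fold lower, though its log2 ratio was positive with the 200 highest spots (2.87), without Sftpc in the score (2.65) and with thinned scoring (0.34), and Ly6d, a surface protein of stratified epithelium and lymphoid cells, at least 9.80-fold lower. Tcerg1l, Mir124-2hg, the host of a neuronal microRNA, and Vgll2 and Lrrc39, genes of striated muscle, also had 0 UMIs. These bounds set 3 UMIs over the distal lung spots in place of 0. Sypl2 had 2 UMIs, a ratio of 0.0294 (0.00356 to 0.106), Nap1l3 1 UMI and the T cell receptor gene Trbc2 5 UMIs. Among lists, skeletal muscle genes were lower in 5 of 5 cases with a median log2 ratio of −3.61, and neuron genes in 4 of 4 with −1.98.

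Levels were then followed by grid distance from the nearest distal lung spot. The 8 outlying spots count here too, so the near distances also hold spots around them. Col2a1 stood at 722 CPM in the distal lung spots, 2590 CPM at 1 step and 2854 CPM at 2 steps. Slc34a2 stood at 493 CPM in the distal lung spots, 36.2 CPM at 1 step, 24.1 CPM at 2 steps and 1.65 CPM at 16 or more steps. Ager followed the same course, with 936, 170, 105 and 9.67 CPM at these distances, and Tbx4 with 77.4, 10.8, 10.2 and 1.43 CPM. All 3 genes dropped most within the first step. The drop includes the choice of the spots itself, and spots next to the patch can hold part of the same tissue.

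Upk3b, a gene of the mesothelium that covers the lung, behaved differently: 75.1 CPM in the distal lung spots, 52.4 CPM at 1 step, 10.2 CPM at 2 steps and 1.40 CPM at 4 to 5 steps. Further out Upk3b rose again, to 12.7 CPM at 9 to 15 steps, and stood at 4.93 CPM at 16 or more. Scgb3a2, a secretoglobin of airway epithelium, had a second peak further out. It stood at 1827 CPM in the distal lung spots, 187 CPM at 1 step, 2077 CPM at 3 steps, 5717 CPM at 6 to 8 steps and 27.9 CPM at 16 or more. Foxj1, the master factor of motile cilia, stood at 17.9 CPM in the distal lung spots, 3.62 CPM at 1 step, 31.5 CPM at 6 to 8 steps and 19.4 CPM at 16 or more.

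**Figure D3:**
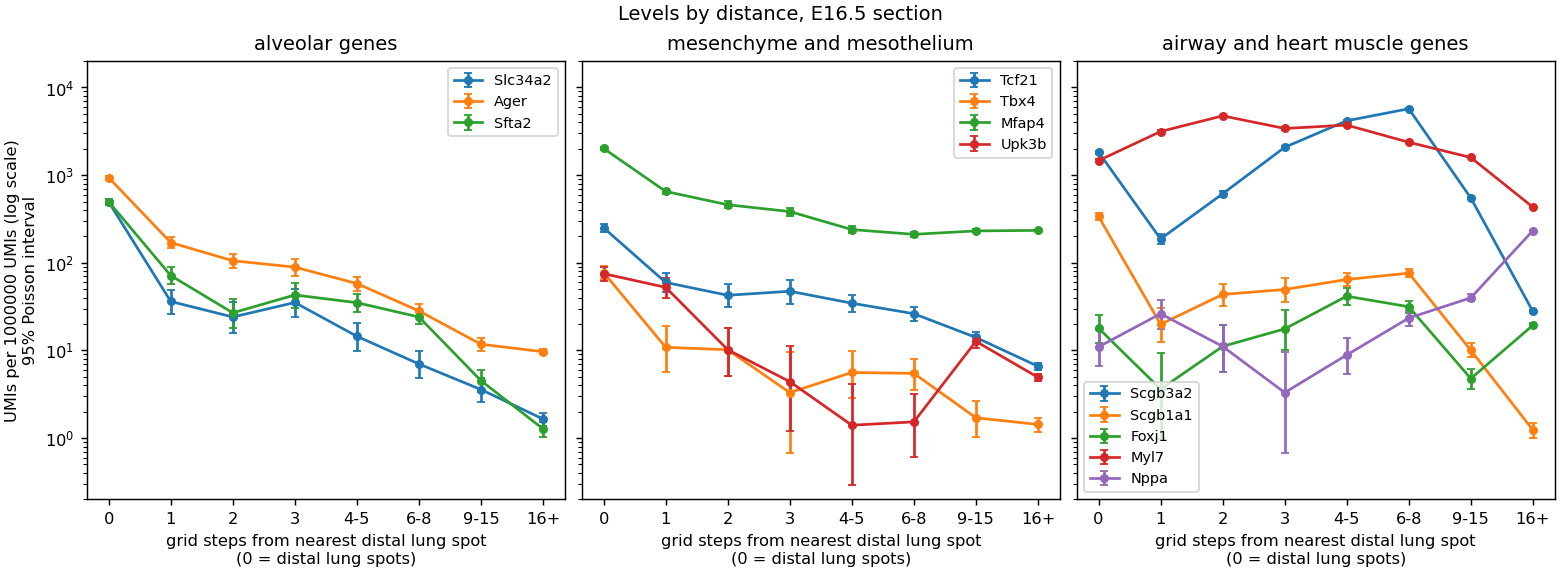
Levels by grid distance from the nearest distal lung spot, as UMIs per 1000000 UMIs on a log axis with 95% Poisson intervals, for alveolar genes (left), mesenchymal and mesothelial genes (middle) and airway and heart muscle genes (right). Distance 0 is the 100 distal lung spots, and the further sets hold 65, 57, 46, 85, 153, 418 and 2664 spots; Slc34a2 falls off after the first step while Scgb3a2 peaks again at 6 to 8 steps.

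Levels also differed within the distal lung spots. The 34 interior spots, with distal lung spots at all 6 neighbouring positions, held 714 CPM of Slc34a2 (647 to 785), against 292 CPM (258 to 330) in the 44 rim spots, which touch other kept spots and include the 8 outlying ones. Ager stood at 1248 CPM in the interior and 528 CPM at the rim, and Tcf21 at 324 and 176 CPM. The other 22 spots, along the grid edge or gaps in the tissue, held 679 CPM of Slc34a2 and 1636 CPM of Ager, closer to the interior than to the rim. Interior and rim are defined by the chosen spots, so differences between them include the choice itself.

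Upk3b stood at 28.7 CPM (16.7 to 45.9) in the interior against 124 CPM (102 to 150) at the rim, so 84.6% of its UMIs in distal lung spots came from rim spots, which held 51.2% of all UMIs there. Upk1b, another mesothelial uroplakin, followed, at 11.8 CPM against 42.9 CPM, but Msln, mesothelin, did not, at 233 CPM against 150 CPM. Col1a1 stood at 1189 CPM against 3493 CPM, the summed immune list at 231 CPM against 817 CPM, and the summed blood list at 31290 CPM against 71783 CPM. Mki67 was level, at 159 CPM against 149 CPM.

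Over the 100 spots, the genes whose levels followed Sftpa1 most closely were Slc34a2 (Pearson r = 0.79), Cxcl15 (0.71), Cldn18 (0.71), Ager (0.67) and Lpcat1 (0.67), of 1244 genes with at least 200 UMIs in these spots. These are type 2 and type 1 genes together. Those closest to Tbx4 were Ctsh (0.50), Tbx2 (0.47), the ribosomal gene Rpl22 (0.47), Fmo2 (0.47) and Npnt (0.45). The correlations are on the log(1 + UMIs per 10000) scale and describe neighbouring spots of 1 library that share depth and tissue.

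Airway genes sat in a few spots. Scgb1a1, the secretoglobin of club cells (chr19:9083642-9087956), stood at 337 CPM against 7.88 CPM in the other spots, but its per-spot median was 0 and its maximum 102 UMIs per 10000. Scgb3a2 had a median of 2.08 and a maximum of 526. The 10 distal lung spots highest in Scgb3a2, 5 of them at the grid edge, held 12.5% of the UMIs. They held 88.0% of the Scgb3a2, 89.2% of the Scgb1a1, 71.0% of the Foxj1 and 87.5% of the Rsph1 UMIs, the last a motile cilia gene.

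These spots lay as a cluster near the lower end of the patch. They held 12895 CPM of Scgb3a2, against 250 CPM in the other 90 distal lung spots, and 236 CPM of Slc34a2 against 529 CPM. Ager stood at 514 CPM against 996 CPM, so alveolar genes were present there at lower levels. Hp, Trf and Cbr2, genes of airway secretory cells chosen after their values were seen, had 68.8%, 59.4% and 64.9% of their UMIs in the 10 spots. Without these 10 spots, 1196 genes were at least 2-fold higher than in the other spots and 2691 lower.

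Other airway genes were not raised over the whole. The 10 ciliated cell genes tested were all within 2-fold of the other spots, with a median log2 ratio of −0.10, and Foxj1 was found in 15 of 100 distal lung spots against 17.1% of the others. Of 9 airway secretory genes 3 were at least 2-fold higher and 4 lower, the lower ones being Scgb3a1, Reg3g, Sox2 and Muc5b, the last with the reversals given above. Basal cell genes were low, with Krt5 at 9.24 CPM against 40.6 CPM, and so were 5 of 7 neuroendocrine genes.

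Of the spots not chosen as distal lung, the 100 highest in Foxj1, Rsph1 and Ccdc153 formed a set of ciliated spots. They lay at a median of 49 steps from the distal lung spots, the nearest at 3 steps. Of the 100 highest ciliated scores among all kept spots, 4 belonged to distal lung spots, which were left out of this set. The summed esophagus list stood at 79.2 CPM in distal lung spots and 3670 CPM in the ciliated spots, and the basal cell list at 56.6 and 1979 CPM. Distal lung spots held 1827 CPM of Scgb3a2 against 5920 CPM in the ciliated spots, but 337 CPM of Scgb1a1 against 81.2 CPM. Sox2, the factor of conducting airway and esophagus, stood at 9.82 CPM against 157 CPM, and Krt5 at 9.24 CPM against 191 CPM. Slc34a2 and Tbx4 stood at 4.62 CPM each in the ciliated spots, against 493 and 77.4 CPM in distal lung spots. Over all spots at 16 or more steps from the distal lung spots they stood at 1.65 and 1.43 CPM.

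Heart muscle genes were also found among the distal lung spots. Myl7, the atrial myosin light chain, stood at 1465 CPM against 814 CPM in the other spots. It was widespread in the section, found in 73 of 100 distal lung spots and in 58.7% of the others. By distance from the nearest distal lung spot, the outlying ones included, it was higher nearby, at 3144 CPM at 1 step and 4746 CPM at 2 steps. The 10 distal lung spots highest in Myl7, 6 at the rim and 2 of these in the last 2 grid columns, had a median of 39866.5 UMIs and 20.7% of all UMIs of the distal lung spots. They held 77.5% of the Myl7 UMIs, 76.9% of those of Myh6 and 73.9% of those of Myl4.

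Of the other heart genes, 2 were at least 2-fold lower. Nppa, the natriuretic peptide gene of the fetal heart, stood at 10.98 CPM against 191 CPM, and Myh7, the slow and ventricular myosin, at 77.4 CPM against 343 CPM. In the 10 spots Nppa had 3 UMIs, or 8.39 CPM, against 11.7 CPM in the other 90, while Myl7 stood at 5491 CPM against 416 CPM. Of the spots not chosen as distal lung, the 100 highest in Myh6, Nppa and Myl7 held 2.99 CPM of Slc34a2, against 383 CPM in the 10 spots. The nearest of these 100 lay 1 step from a distal lung spot. Over the heart list, 2 of 7 genes were at least 2-fold lower and none higher, with summed levels of 3046 CPM against 2797 CPM. The part of neighbouring heart muscle in the Myl7 values was not tested. Without the 10 spots, 1344 genes were at least 2-fold higher and 2680 lower.

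**Figure D4:**
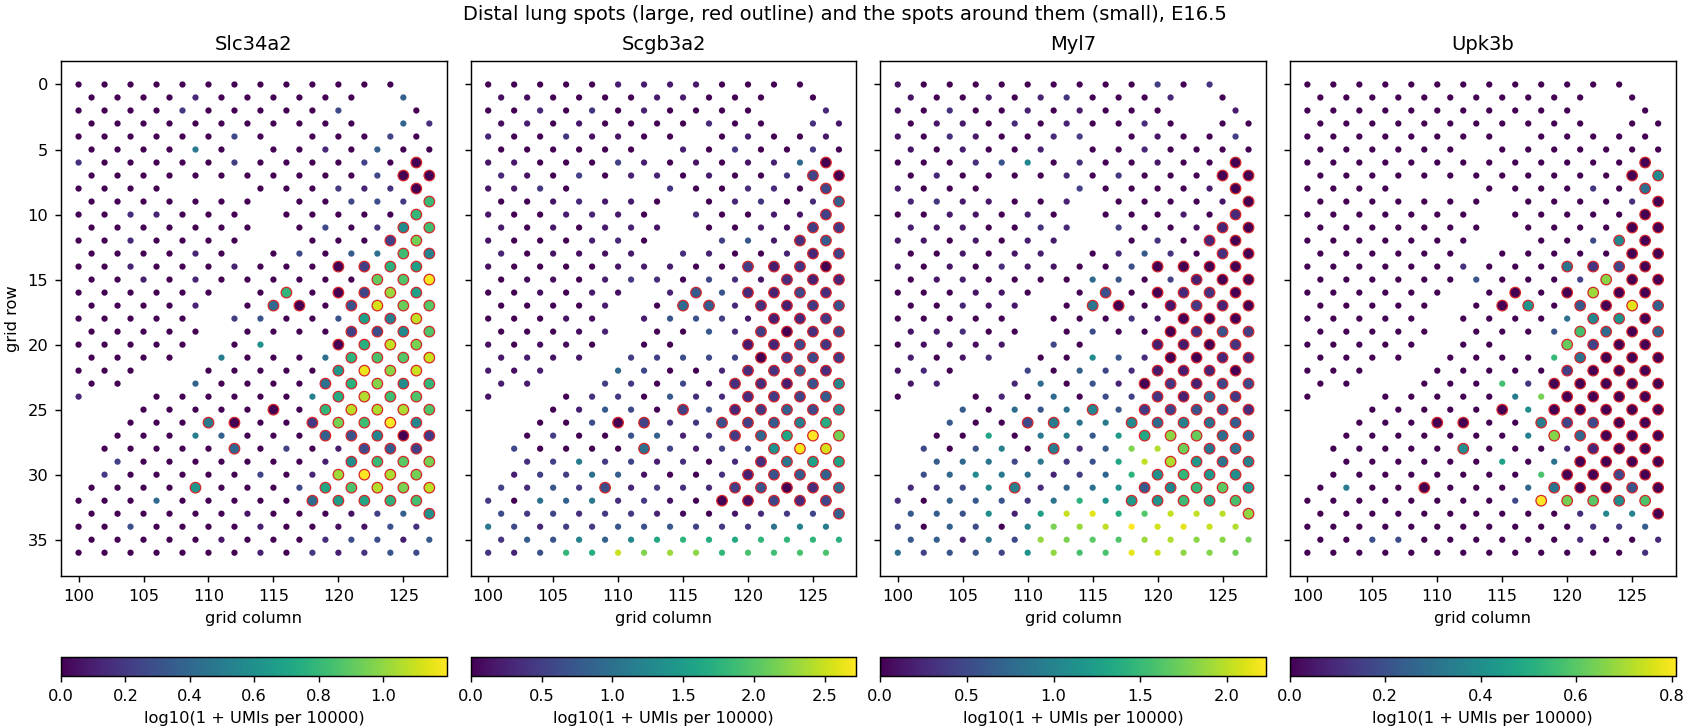
Slc34a2, Scgb3a2, Myl7 and Upk3b per spot near the right edge of the E16.5 section, by grid column and row; colour is log10(1 + UMIs per 10000), large red-outlined points are distal lung spots and small points other kept spots. Slc34a2 fills the patch, Scgb3a2 is concentrated in a few spots of its lower end, Myl7 is high at the lower border and Upk3b is highest mostly along the border.

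The earlier stage was scored in the same way. No E13.5 spot reached the lowest E16.5 score of 1.624, and the highest E13.5 score was 1.078. Of the 100 highest E13.5 spots 60 formed 1 connected group and the rest lay in 20 smaller groups. The 60 connected spots, chosen for the comparison after the data were seen, held 1707630 UMIs with a median of 27028 per spot, close in total to the 1730874 UMIs of the E16.5 spots. Their Nkx2-1 level was 97.8 CPM and their Sftpc level 100 CPM, against 159 and 13904 CPM at E16.5, as a description of the choice. Stage and section cannot be told apart, and the 2 sets of spots were chosen by different limits.

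Several regulators described above had close values at both stages. Tbx4 stood at 77.4 CPM at E16.5 and 81.4 CPM at E13.5, against 2.86 CPM in other E13.5 spots. Wnt2 stood at 60.1 and 68.5 CPM, Foxf1 at 73.4 and 91.9 CPM, Shh at 37.0 and 42.7 CPM, and Etv5 at 151 and 145 CPM. Gli1 stood at 41.0 and 45.1 CPM and Ptch1 at 99.4 and 110 CPM. Bmp4 and Foxa2, with under 100 UMIs in both sums, stood at 27.2 and 26.9 CPM and at 26.6 and 28.7 CPM.

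Of 5664 genes with at least 100 UMIs in both sums together, 682 (12%) were at least 2-fold higher at E16.5 and 487 (8.6%) lower. These shares are the base for each list count between the stages. The highest ratios were again those of surfactant and secretory genes. The E16.5 spots were chosen with Sftpc and Sftpb at 13904 and 824 CPM, and the E13.5 group held 100 and 4.68 CPM. Ratios of other surfactant genes between the stages were therefore partly set by the choice of spots. Scgb3a2 stood at 1827 CPM at E16.5 and had 1 UMI, or 0.586 CPM (0.0148 to 3.26), at E13.5. Slc34a2, Scgb1a1 and Retnla had 0 UMIs at E13.5 and were at least 281-fold, 192-fold and 129-fold higher at E16.5, with 3 UMIs set in place of 0.

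Fmo2, a flavin monooxygenase abundant in lung, was at least 79.9-fold higher, Lamp3 at least 70.7-fold, Lyz1 at least 65.1-fold, Higd1b at least 53.9-fold and Sftpd at least 48.3-fold. Tmem213 had 1 UMI at E13.5 and stood at 215 CPM at E16.5. Some alveolar genes were already counted at E13.5: Cldn18 at 248 CPM at E16.5 and 36.3 CPM at E13.5, Cxcl15 at 538 and 14.6 CPM, Ager at 936 and 19.3 CPM, and Hopx at 442 and 12.9 CPM. Within the E13.5 section, Cldn18 stood at 36.3 CPM in the connected group and 0.237 CPM in the other spots.

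Of 15 type 2 and surfactant genes compared, 14 were at least 2-fold higher at E16.5, with a median log2 ratio of 5.46, and of 13 type 1 genes 12 were, with 3.19. These counts include the effect of the choice of spots given above. Ion and water transport genes were higher in 8 of 8 cases. Elastin stood at 1924 CPM at E16.5 and 165 CPM at E13.5, and Mfap4 at 2012 and 234 CPM. Tcf21 was 2.87-fold higher, beside 6 of 17 lung mesenchyme genes at least 2-fold higher and none lower. Endothelial genes were higher in 9 of 16 cases, with Pecam1 at 152 and 52.7 CPM.

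Proliferation genes ran the other way, with 12 of 15 at least 2-fold lower at E16.5 and a median log2 ratio of −1.40. Top2a, a topoisomerase of dividing cells, stood at 89.0 CPM at E16.5 and 235 CPM at E13.5, and Mki67 at 154 and 199 CPM. Of 8 tip genes none was at least 2-fold higher and 3 were lower, among them Mycn at 14.4 and 43.9 CPM and Hmga2, a chromatin protein of growing embryonic tissue, at 5.20 and 66.2 CPM. Among the 10 lowest ratios, Hbb-y, Hba-x and Hbb-bh1 are embryonic globins, and Afp, Alb, Ttr and Apoa2 are liver and yolk sac genes.

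Hbb-y stood at 5.78 CPM at E16.5 and 5990 CPM at E13.5, with 5379 CPM in the other E13.5 spots, so its level at E13.5 was near that of the whole section. Ccne1, a cyclin, stood at 12.1 and 75.0 CPM, and Mdk, midkine, at 281 and 1599 CPM. In the P0 esophagus, Sftpa1 and Lamp3 had 0 UMIs in both sections, Slc34a2 stood at 0.369 ± 0.247 CPM and Scgb3a2 at 1.89 ± 0.600 CPM (SD, n = 2 sections). Hopx stood at 442 CPM in distal lung spots, below its 1906 ± 54.9 CPM in the P0 esophagus (SD, n = 2).

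**Figure D5:**
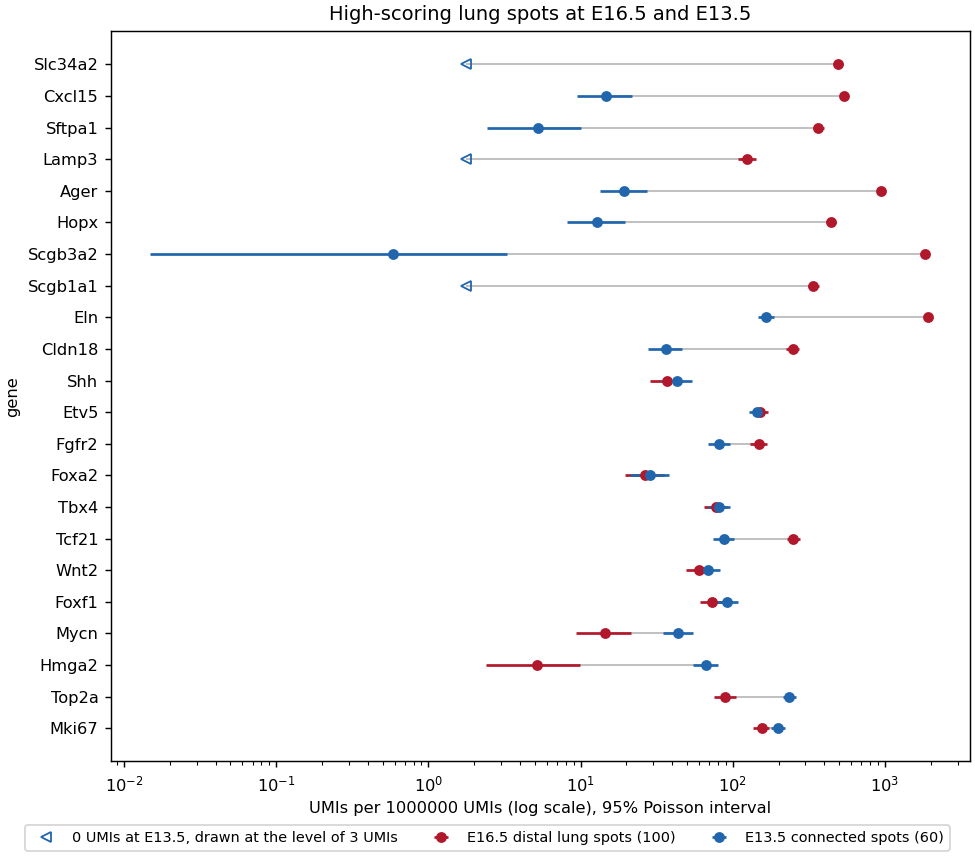
Levels in the 100 distal lung spots of E16.5 (red) and the 60 connected high-scoring spots of E13.5 (blue), as UMIs per 1000000 UMIs on a log axis with 95% Poisson intervals; open triangles mark 0 UMIs at E13.5, drawn at the level of 3 UMIs. Slc34a2, Lamp3 and Scgb1a1 had 0 UMIs at E13.5, while Shh, Etv5, Tbx4 and Wnt2 lie close together.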

How the data were processed

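Per the file headers, the authors ran Space Ranger 2.0.0 and deposited its counts for each spot, whole numbers of UMIs for 32285 genes with no normalization. The submitters' processing notes name mm10 as genome build. Spots over tissue entered from 500 UMIs, and those chosen by the score were compared with all others of the E16.5 section. UMIs were summed over spots and divided by the sum's total to give CPM. Log2 ratios used a pseudocount of 0.5 CPM, genes needed 200 UMIs over kept spots, and 2-fold was the threshold. Gene positions and promoters are RefSeq's, by symbol. Calculations ran in Python 3.11.15 with numpy 2.4.6, pandas 2.3.3 and scipy 1.17.1, and were tested on simulated data.

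Genes named are the 25 highest and 10 lowest ratios, the 10 highest and 10 lowest between stages, the 5 closest to Sftpa1 and to Tbx4, and members of 42 gene lists. The members and lists were chosen with earlier results of these data known. Where several list genes had 0 UMIs, medians were also taken with them at 3 UMIs. Alternatives changed the number of spots, the score, the gene filter, the pseudocount, the scaling and the comparison spots.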

Additional observations from a re-analysis of the deposited data

How the results depend on the processing

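The patch held 34 connected spots with the 50 highest and 179 with the 200 highest. Genes at least 2-fold higher numbered 711 with the 200 highest spots, 634 with a filter of 1000 UMIs, 739 with a pseudocount of 5 CPM and 539 against spots 3 to 8 steps away. Genes lower numbered 1526, 1364 and 1221 under the last 3 of these. The filter and the nearby spots test fewer genes, 10425 and 7515. Other alternatives kept these counts within 1.5 times. The share of higher genes among all calls stayed between 29.2% and 35.1%.

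Of the list medians, 637 values moved by no more than the usual half-width of their genes' counting intervals and 108 by more, and 6 with a main size of at least 1 changed sign. Smaller medians were not counted for their sign. Thyroid reached 0.13 with the 200 highest spots and 4.83 without Sftpc in the score, forebrain 0.43 with a filter of 50 UMIs, lymphatic endothelium −0.53 with a filter of 1000 UMIs and −0.16 against spots 3 to 8 steps away, and mesothelium −0.27 against those spots. Muc5b reached a log2 ratio of 2.87 with the 200 highest spots, 2.65 without Sftpc and 0.34 with thinned spots. The cause was not tested. Of 35 genes with the highest or lowest ratios, 26 moved by more than their counting interval's half-width against spots 3 to 8 steps away, 25 with a pseudocount of 5 CPM and 24 with the 200 highest spots. With genes at 0 UMIs set to 3 UMIs, the thyroid median was −1.13 in place of −2.91, and that of airway secretory genes between stages 6.37 in place of 8.19. With all 100 E13.5 spots, 679 genes of 6824 were higher and 546 lower. Leaving out the spots highest in Myl7 or Scgb3a2, those under 7000 UMIs, and the connected E13.5 group were added after the data were seen. No paired analysis was possible because each embryonic stage has 1 section and no fit was made. Genes with a few UMIs in the distal lung spots are limited by depth, and 240 tested genes had none.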

Other observations

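Several genes outside the lists were high in the distal lung spots and were chosen after their values were seen. Fendrr, a long noncoding RNA transcribed beside Foxf1, stood at 77.4 CPM (64.9 to 91.7) against 3.25 CPM in the other spots, a 23.8-fold difference (19.4 to 29.2), and was found in 65 of 100 distal lung spots. Adh1, an alcohol dehydrogenase that also acts on retinol, stood at 493 CPM against 30.4 CPM, and Selenbp1, a selenium-binding protein, at 313 CPM against 45.1 CPM. Wfdc2, a secreted protein of airway epithelium, stood at 404 CPM against 80.7 CPM.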
